A study of Mus musculus with 12 samples.

Results

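The genes described here are 10 antioxidant and metal-binding genes: Nqo1, Hmox1, Gclc, Gclm, Txnrd1, Srxn1, Gpx2 and Gsr, classical targets of the transcription factor Nrf2, and the metallothioneins Mt1 and Mt2. They were chosen by name, and all 10 were found among the 46517 genes counted and passed the filter that left 12522 genes to test. They were measured by RNA sequencing in epithelial cells detached with EDTA from the colons of C57BL/6 mice aged 7 to 9 weeks. There were 4 groups of 3 samples: wild type (WT) untreated, WT after 48 h of dextran sulfate sodium (DSS, a sulfated sugar polymer used to damage the gut lining), Nfkb2-/- (knockout, KO) untreated, and KO after 48 h of DSS. Nfkb2 encodes a subunit of the transcription factor NF-kB, and the knockout is named by genotype only, with no cell type to which it is limited. The study's title places Nfkb2 signalling in the epithelium upstream of canonical NF-kB activity in intestinal inflammation, and the comparisons below ask how the 10 genes differed with DSS and with genotype.

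Nrf2, encoded by Nfe2l2, is held at a low level by Keap1, which presents it for degradation. When electrophiles or oxidants modify Keap1, Nrf2 accumulates, pairs with a small Maf protein and binds antioxidant response elements (AREs), from which Bach1 can displace it. Its targets make and recycle glutathione, drive the thioredoxin system, and detoxify quinones and heme. Metallothioneins are small cysteine-rich proteins that bind zinc and copper, and the zinc-sensing factor Mtf1 switches their genes on through metal response elements (MREs). In the colon, Gpx2 is the glutathione peroxidase known as the gastrointestinal form and is typical of crypt cells.

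The 250 bases before the start of 4 of the genes are shown because they are the sequences in which an ARE or MRE close to the start would lie. Gpx2 is the member that passed in the main comparisons below. Srxn1 did not pass there, but did with DESeq2 and in an average over genotypes added after the values were seen. Mt1 and Mt2 are the metallothioneins. The sequence of Gclm, which passed only without the filter on low counts, is not shown. All sequences were read from the RefSeq promoter table of GRCm38.p6, which matched 7 of the 10 members. Capitals mark the letters of an ARE core (TGACNNNGC), an MRE core (TGCACNC or TGCGCNC) or an AP-1 site (TGACTCA) on either strand. The Srxn1 sequence is chr2:152105274-152105523 on the plus strand, and that of Gpx2 is chr12:76795555-76795804 on the minus strand. Those of Mt1 and Mt2 are chr8:94178839-94179088 and chr8:94172368-94172617, both on the plus strand.
Srxn1: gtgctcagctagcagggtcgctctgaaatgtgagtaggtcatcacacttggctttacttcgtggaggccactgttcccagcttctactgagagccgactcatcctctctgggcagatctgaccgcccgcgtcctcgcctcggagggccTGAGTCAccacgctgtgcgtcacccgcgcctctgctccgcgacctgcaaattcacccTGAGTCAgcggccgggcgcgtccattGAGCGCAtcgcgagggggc
Gpx2: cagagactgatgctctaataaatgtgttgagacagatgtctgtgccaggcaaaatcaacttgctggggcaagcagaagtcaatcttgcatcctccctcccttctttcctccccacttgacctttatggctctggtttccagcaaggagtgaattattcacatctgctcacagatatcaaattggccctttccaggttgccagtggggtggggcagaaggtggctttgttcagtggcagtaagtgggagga
Mt1: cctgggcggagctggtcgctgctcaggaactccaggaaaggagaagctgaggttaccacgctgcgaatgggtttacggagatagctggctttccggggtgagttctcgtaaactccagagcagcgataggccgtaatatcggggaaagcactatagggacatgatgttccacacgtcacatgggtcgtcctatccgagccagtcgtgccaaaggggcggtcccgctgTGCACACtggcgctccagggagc
Mt2: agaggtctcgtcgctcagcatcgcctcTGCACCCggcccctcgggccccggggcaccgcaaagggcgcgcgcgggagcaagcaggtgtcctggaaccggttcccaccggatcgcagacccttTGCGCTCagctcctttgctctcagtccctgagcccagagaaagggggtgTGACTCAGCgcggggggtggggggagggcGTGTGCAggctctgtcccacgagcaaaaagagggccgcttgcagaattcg
The search window ran on to 50 bases after the start, a window of 300 bases. Over all 32851 such windows in the table, 12.4% held an ARE core, 25.7% an MRE core and 5.2% an AP-1 site. Srxn1 held 2 AP-1 sites, 102 and 45 bases before the start, 1 MRE core 19 bases before it, and an ARE core 28 bases after it. Gpx2 held none of the 3 motifs. The Mt1 window held 3 MRE cores, 23 bases before the start and 2 and 20 bases after it. The Mt2 window held 4 MRE cores and an ARE core 79 bases before the start, TGACTCAGC, whose first letters are also the AP-1 match. Of the other members in the table, Gclm held 1 ARE core and 3 MRE cores, Txnrd1 an ARE core in 1 of its 3 windows, and Nqo1 none. A match is a run of letters and not a measured binding site, and a window without a match says nothing of sites elsewhere.

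Total counts ranged from 5595909 to 8117740 per sample. The targeted gene was checked first: Nfkb2 had 87 to 143 counts across the KO samples against 211 to 346 across the WT samples. Mean log2 CPM (counts scaled to the size of the library) differed by -1.31, with an exact two-sided permutation p of 0.00216, the lowest value 924 rearrangements allow. All genotype labels matched in direction, and reads counted to the gene remained in KO. Exons of AC114539.1 and Psd overlap Nfkb2, so without strand information the source of the remaining reads is uncertain. Epithelial markers (Epcam, keratins and others, 7 genes) summed to 20957 to 30348 CPM in every sample, while 11 stromal markers summed to at most 7.43 CPM. All WT libraries carry lower library numbers in the labels than all KO libraries, so the order of libraries and the genotype cannot be told apart. Levels below are CPM scaled by TMM factors, and adjusted p values are from edgeR's quasi-likelihood test with Benjamini-Hochberg adjustment over all genes tested. The samples are bulk RNA, so fewer cells of a type and less RNA per cell cannot be told apart.

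Gpx2 was by far the most abundant of the 10 transcripts and Mt2 the scarcest. Per kilobase of exon, the mean level over the 12 samples was 169 CPM for Gpx2, 61.2 for Gsr, 32.3 for Nqo1, 24.5 for Txnrd1, 16.4 for Srxn1, 12.2 for Mt1, 10.7 for Gclm, 5.33 for Gclc, 2.33 for Hmox1 and 2.14 for Mt2. Mt2 had only 2 to 16 counts in a sample and Hmox1 8 to 45, so counting limited the precision of both. Hmox1 also spread 4.47-fold in CPM between samples of untreated WT, which held 35, 8 and 38 counts.

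**Figure D1:**
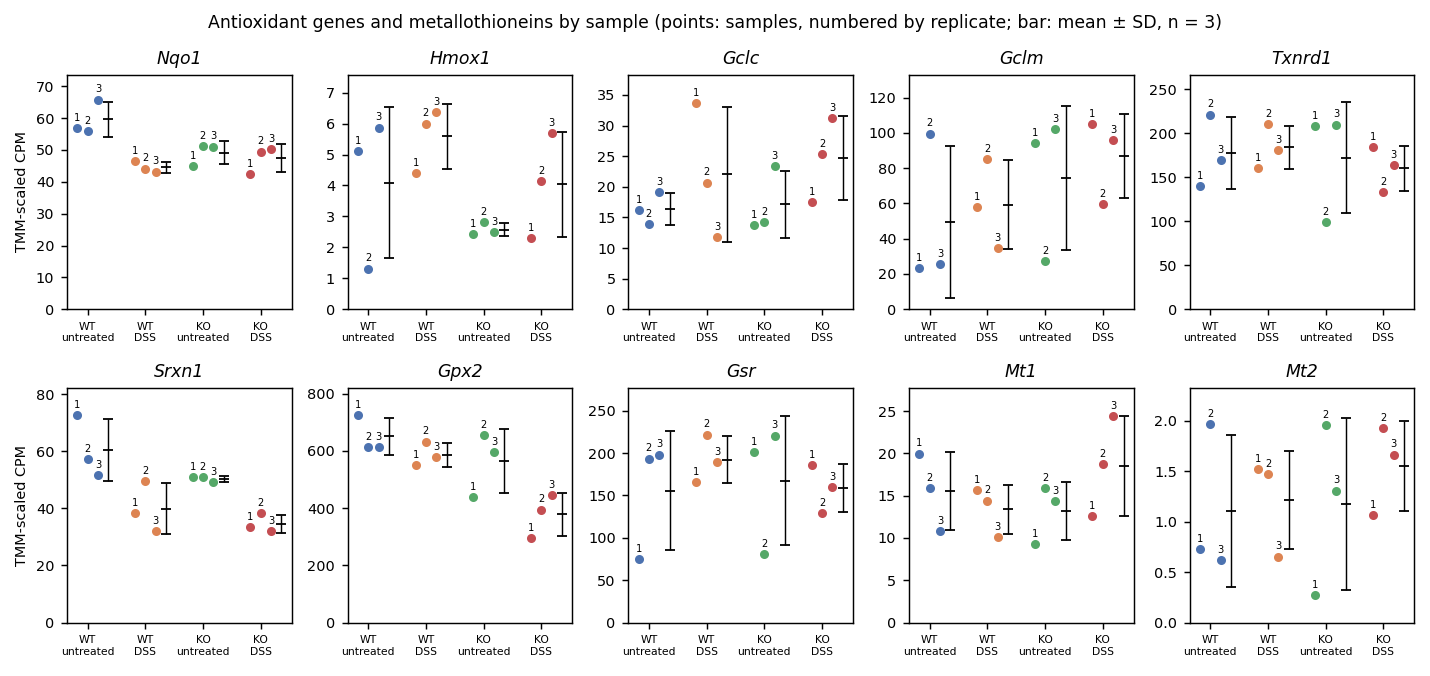
Level of each of the 10 genes in each sample. The vertical axes give TMM-scaled CPM from 0, each point is 1 sample with its replicate number, and the bar beside each group is the mean with its SD (n = 3). Gpx2 in DSS-treated KO, at 296 to 445 CPM, lies below Gpx2 in DSS-treated WT, at 550 to 632 CPM, while Gclm and Gsr spread several-fold within single groups.

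None of the 10 genes passed the threshold with DSS in either genotype. In WT, 0 of the 10 passed the threshold, against 6.3% of all genes tested (2.8% higher, 3.5% lower), and the median log2 fold change of the 10 was 0.10 (0.0063 over all genes). At an unadjusted p under 0.05 there were 2 of 10, Nqo1 and Srxn1, both lower, against 17.6% of all genes, and DESeq2 called 1, Srxn1. These were also the 2 members whose 3 DSS values did not overlap the 3 untreated ones, as was so for 20.6% of all genes. In KO, 0 of 10 passed against 3.92% of all genes (1.88% higher, 2.04% lower), with a median of 0.085 (0.015 over all genes). Unadjusted, 2 of 10 had a p under 0.05, Srxn1 and Gpx2, both lower, against 15.9% of all genes, and DESeq2 called 1, Gpx2. Only Srxn1 of the members had groups that did not overlap in KO, against 24.3% of all genes.

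Between genotypes, Gpx2 was the 1 member that passed, and it was lower in DSS-treated KO than in DSS-treated WT. In untreated cells 0 of 10 passed, against 3.48% of all genes (1.72% higher, 1.76% lower), with a median difference of -0.12 (-0.0015 over all genes), 0 at an unadjusted p under 0.05 (15.4% of all genes) and 0 called by DESeq2. Nqo1 and Srxn1 were lower in untreated KO without overlap, 2 of 10 against 19.3% of all genes. Under DSS 1 of 10 passed, against 3.11% of all genes (1.77% higher, 1.34% lower), with a median of -0.055 (0.0027 over all genes). Unadjusted, 1 of 10 had a p under 0.05, Gpx2, against 14.6% of all genes, and DESeq2 called 1, Gpx2. Gpx2 was also the 1 member without overlap, against 22.3% of all genes. For the interaction, the DSS change in KO minus that in WT, 0 of 10 passed against 1.7% of all genes (1.17% positive, 0.527% negative). There were 0 at an unadjusted p under 0.05 (10.6% of all genes) and 0 by DESeq2, and the median was 0.082 (-0.0066 over all genes). The comparisons share samples: each group enters several of them.

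**Figure D2:**
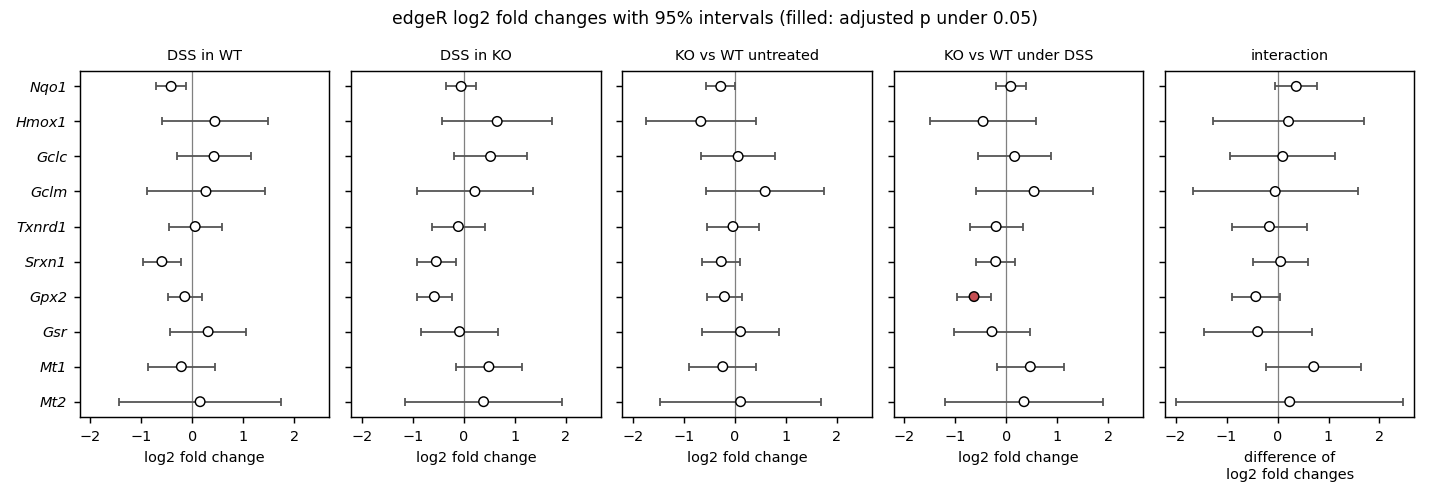
Log2 fold change of each gene in the 4 pairwise comparisons and, in the last panel, the interaction. Points are edgeR estimates, bars are 95% intervals, and a filled point has an adjusted p under 0.05. The filled point is Gpx2 for KO against WT under DSS (-0.63), and the intervals of Gclm, Hmox1 and Mt2 are the widest.

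Gclc and Gclm encode the catalytic and the modifier subunit of glutamate-cysteine ligase, the enzyme of the first step of glutathione synthesis. Gclc was at 16.2, 13.9 and 19.2 CPM in untreated WT samples 1, 2 and 3 and at 33.7, 20.7 and 11.7 CPM in DSS-treated WT. In KO it was at 13.7, 14.3 and 23.4 CPM untreated and at 17.5, 25.4 and 31.2 CPM under DSS. The DSS samples reached higher values than the untreated ones in both genotypes, but the groups overlapped. With DSS the log2 change of Gclc was 0.42 in WT (95% interval -0.31 to 1.16) and 0.53 in KO (-0.20 to 1.25).

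Gclm varied several-fold between samples of a group. It was at 23.5, 99.6 and 25.5 CPM in untreated WT, at 57.9, 85.1 and 34.7 CPM in DSS-treated WT, at 94.1, 27.2 and 102 CPM in untreated KO and at 105, 59.6 and 95.9 CPM in DSS-treated KO. In untreated WT sample 2 stood 4.24 times above sample 1, and in untreated KO sample 2 was the low one. The largest of its pairwise log2 fold changes, KO against WT untreated, was 0.59 with an interval from -0.56 to 1.75 (adjusted p 0.694). Without the filter on low counts that adjusted p was 0.0263. Gclm shares 4.58% of its 50-base words (stretches of 50 bases of its transcripts) with other genes. It shares the most with Gm17494, whose exons overlap it and which had 0 to 20 counts.

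Gsr and Txnrd1 encode glutathione reductase and cytosolic thioredoxin reductase, which use NADPH to return glutathione and thioredoxin to their reduced form. Gsr was at 74.5, 194 and 198 CPM in untreated WT and at 166, 222 and 189 CPM in DSS-treated WT. In KO it was at 201, 80.7 and 221 CPM untreated and at 186, 129 and 160 CPM under DSS. Single low samples, the first of untreated WT and the second of untreated KO, set the spread, and all groups overlapped. Txnrd1 was at 140, 221 and 170 CPM in untreated WT, at 161, 210 and 181 CPM in DSS-treated WT, at 208, 99.1 and 210 CPM in untreated KO and at 184, 133 and 164 CPM in DSS-treated KO. Its group means lay within 1.15 times of each other. The intervals of its 4 pairwise log2 changes ran from -0.72 at the lowest to 0.57 at the highest, and those of Gsr from -1.03 to 1.06.

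Gpx2 (chromosome 12, 76792333 to 76795554 on the minus strand of GRCm38, within the span of Fntb), which reduces hydroperoxides with glutathione, was lowest in DSS-treated KO. It was at 724, 613 and 613 CPM in untreated WT and at 550, 632 and 578 CPM in DSS-treated WT. In KO it was at 439, 656 and 596 CPM untreated and at 296, 394 and 445 CPM under DSS. All 3 KO samples under DSS lay below all 3 WT samples under DSS, while every other pair of groups except untreated WT and DSS-treated KO overlapped. Among the DSS-treated samples KO averaged 378 ± 76.0 CPM and WT 587 ± 41.8 CPM (SD, n = 3), a level 1.55-fold lower in KO (log2 fold change -0.63, SE 0.16, 95% interval -0.97 to -0.30, adjusted p 0.0436). The DSS change within KO was -0.58 (interval -0.91 to -0.24, adjusted p 0.0581) and within WT -0.15 (interval -0.48 to 0.19, adjusted p 0.731). The difference between these changes, -0.43, did not pass (unadjusted p 0.0741, adjusted p 0.537). The difference under DSS also passed with DESeq2 (adjusted p 0.00854) and with the replicate block. It was lost with upper quartile scaling (adjusted p 0.064) and in 7 of 12 fits that each left out a sample. These left out any of the 3 WT samples under DSS, KO samples 1 or 2 under DSS, untreated KO sample 3 or untreated WT sample 2 (adjusted p 0.0587 to 0.155), and the smallest difference, -0.48, was without KO sample 1 under DSS.

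Several measured quantities moved beside Gpx2. The 7 epithelial markers summed to 20957 to 22724 CPM in DSS-treated KO and 24411 to 25716 CPM in DSS-treated WT. They summed to 23299 to 24800 CPM in untreated KO and 22754 to 30348 CPM in untreated WT. Under DSS 1 of 7 was lower in KO than in WT and 0 were higher. Crypt markers (stem and dividing cell genes such as Lgr5 and Mki67) fell under DSS in KO in 8 of 11 cases and in WT in 2 of 11, and 1 of 11 was lower in DSS-treated KO than in DSS-treated WT. Their summed level was 404 to 434 CPM in DSS-treated KO and 459 to 489 CPM in DSS-treated WT. It was 757 to 785 CPM in untreated KO and 543 to 866 CPM in untreated WT. Goblet cell markers (Muc2, Tff3 and others, 7 genes) were higher in DSS-treated KO than in DSS-treated WT in 3 of 7 cases and lower in 0. They summed to 26746 to 30690 CPM in DSS-treated KO and 15164 to 17514 CPM in DSS-treated WT, against 13779 to 15157 CPM in untreated KO and 18849 to 29947 CPM in untreated WT. KO sample 1 under DSS, the lowest for Gpx2, also had the lowest level of short transcripts against long ones of the 12 samples (-0.26 log2 CPM from the mean over samples). The part of these in the Gpx2 difference was not tested. Gpx2 shares 6.03% of its 50-base words with the pseudogene Gpx2-ps1, which was at 0.97 to 2.08 CPM on average in a group. The tested genes whose centred log2 CPM followed that of Gpx2 most closely over the 12 samples were Hsp90aa1, Fgfbp1 and Slc25a13. Their root mean square differences from it were 0.13, 0.15 and 0.16, against a median of 0.51 over all genes. Hsp90aa1 is a cytosolic heat-shock chaperone and is also on the list of dissociation genes. With DSS its log2 change was -0.20 in WT and -0.45 in KO, while more called genes of that list rose than fell (given below).

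Srxn1 (chromosome 2, 152105516 to 152111376, plus strand) encodes sulfiredoxin, which repairs over-oxidised peroxiredoxins, and its DSS samples lay below its untreated samples in both genotypes. It was at 72.7, 57.3 and 51.8 CPM in untreated WT and at 38.3, 49.5 and 32.1 CPM in DSS-treated WT. In KO it was at 50.9, 50.9 and 49.2 CPM untreated and at 33.6, 38.3 and 32.1 CPM under DSS. No DSS sample reached the lowest untreated sample of its genotype. The log2 change was -0.60 in WT (SE 0.18, interval -0.98 to -0.22, adjusted p 0.0627) and -0.54 in KO (SE 0.18, interval -0.92 to -0.16, adjusted p 0.126), neither past the threshold. In WT it passed with DESeq2 (adjusted p 0.0272) and without untreated sample 3 (0.0349) or DSS sample 2 (0.0285). The difference of the changes was 0.061 with an interval from -0.47 to 0.60. In a comparison added after these values were seen, DSS averaged over both genotypes, Srxn1 fell 1.48-fold (log2 change -0.57, SE 0.13, adjusted p 0.00985) and was the 1 member of 10 called, against 8.92% of all genes (4.06% higher, 4.86% lower). With the same averaging over treatments, Gpx2 was the 1 member of 10 called for KO against WT, 1.34-fold lower (-0.42, SE 0.11, adjusted p 0.0379), against 5.95% of all genes (3.07% higher, 2.88% lower).

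Nqo1 encodes a quinone reductase that is often read as the standard indicator of Nrf2 activity. Its level was tightly held: 57.0, 55.9 and 65.8 CPM in untreated WT, 46.5, 44.1 and 43.2 CPM in DSS-treated WT, 45.0, 51.3 and 51.1 CPM in untreated KO, and 42.4, 49.5 and 50.3 CPM in DSS-treated KO. The untreated WT samples lay above every other sample. The change under DSS in WT was -0.42 (interval -0.71 to -0.13, adjusted p 0.0941), and in KO it was -0.050 (interval -0.34 to 0.24). The interaction of 0.37 did not pass (interval -0.040 to 0.78, adjusted p 0.537).

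Hmox1, heme oxygenase, which breaks heme down to iron, biliverdin and carbon monoxide, was low in all samples. It was at 5.10, 1.31 and 5.87 CPM in untreated WT, at 4.40, 6.00 and 6.36 CPM in DSS-treated WT, between 2.42 and 2.81 CPM in untreated KO and at 2.30, 4.15 and 5.68 CPM in DSS-treated KO. All groups overlapped except DSS-treated WT and untreated KO, which differ in both genotype and treatment. The change under DSS was 0.44 in WT (interval -0.60 to 1.49) and 0.66 in KO (interval -0.42 to 1.73). Macrophages also make Hmox1, and 13 macrophage, monocyte and neutrophil markers summed to 73.2 to 87.3 CPM in untreated WT, 203 to 215 CPM in DSS-treated WT, 131 to 140 CPM in untreated KO and 201 to 222 CPM in DSS-treated KO. Under DSS 4 of the 10 of them that could be tested were called higher in WT and 1 in KO, and Adgre1 was at 0 in untreated WT. The 5 red blood cell markers summed to 0.15 to 3.86 CPM in untreated WT and 0.13 to 1.63 CPM in DSS-treated WT. In KO they summed to 0.37 to 1.48 CPM untreated and 0.35 to 1.39 CPM under DSS. Of these, hemoglobin Hbb-bs was at 0 outside DSS-treated KO, where it had 1 to 2 counts, while Alas2 reached 25 counts in untreated WT sample 3. The part of macrophages in the Hmox1 values was not tested.

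The metallothioneins Mt1 and Mt2 lie side by side on the plus strand of chromosome 8, at 94179082 to 94180327 and 94172664 to 94173568. Mt1 was at 20.0, 15.9 and 10.8 CPM in untreated WT and at 15.6, 14.4 and 10.1 CPM in DSS-treated WT. In KO it was at 9.29, 15.9 and 14.4 CPM untreated and at 12.6, 18.7 and 24.4 CPM under DSS. Its DSS change was -0.22 in WT (interval -0.88 to 0.44) and 0.49 in KO (interval -0.16 to 1.15), and the interaction of 0.71 did not pass (interval -0.22 to 1.64, adjusted p 0.639). Mt2 was at 0.73, 1.97 and 0.62 CPM in untreated WT, at 1.52, 1.47 and 0.65 CPM in DSS-treated WT, at 0.27, 1.95 and 1.31 CPM in untreated KO and at 1.06, 1.93 and 1.66 CPM in DSS-treated KO. The untreated KO sample at 0.27 CPM held 2 counts, below the floor of 3 counts used here. All groups overlapped for both genes. The antisense gene Gm45774 overlaps Mt2 and holds 45.9% of its 50-base words, so without strand information the Mt2 counts are uncertain.

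The spread between samples of a group was itself uneven among the 10 genes. The within-group SD of log2 CPM was 0.88 for Gclm, larger than in 99.5% of the 1926 tested genes of like level, 0.59 for Gsr (99.3% of 952) and 0.38 for Txnrd1 (94.7% of 906). For Gpx2 it was 0.23 (90.7% of 257). At the other end, Nqo1 had an SD of 0.11, larger than in 3.35% of the 2057 genes of its level. Gclm, Gsr and Txnrd1 were all lowest in sample 1 of untreated WT, in sample 2 of untreated KO and in sample 2 of DSS-treated KO. In DSS-treated WT all 3 were highest in sample 2. Gclc, the partner subunit of Gclm, was not lowest in any of those 3 samples. Mt1 and Mt2 were lowest in a different set, sample 3 of each WT group and sample 1 of each KO group. These were also the samples of each group with the lowest level of short transcripts against long ones. That level rests on each gene's deviation of log2 CPM from its group mean. It is the median deviation of tested genes with at most 2678 bases of exon minus that of genes with at least 6674. What the samples with low Gclm, Gsr and Txnrd1 share was not tested.

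**Figure D3:**
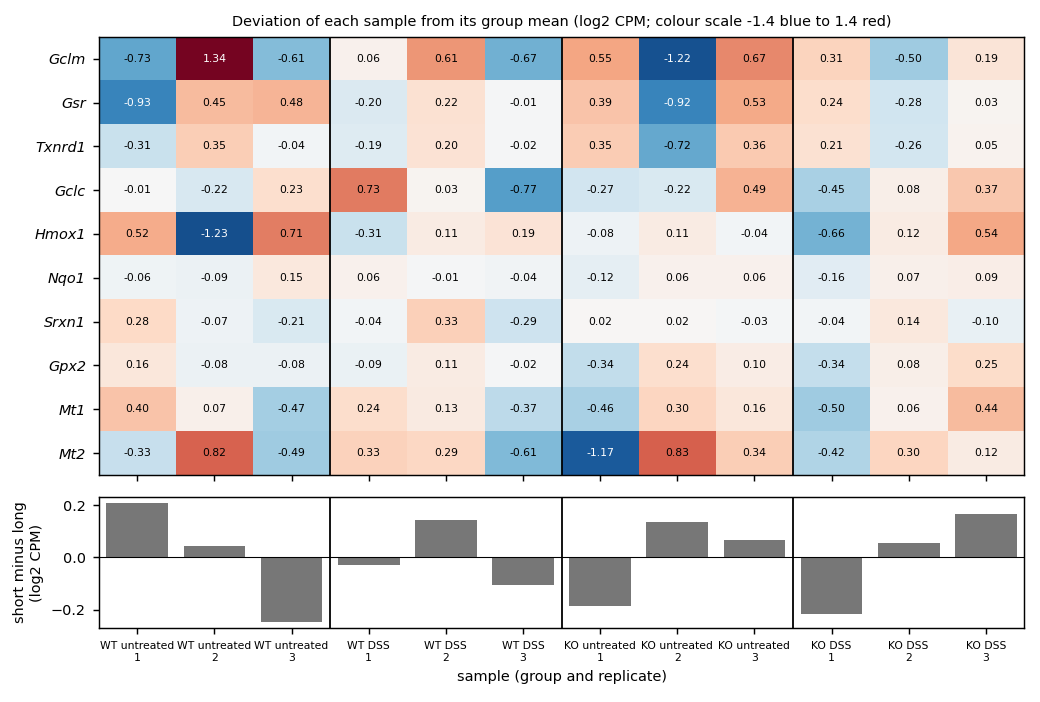
Deviation of each sample from its group mean in log2 CPM for each gene (upper panel, blue lower and red higher), above the deviation of the short-minus-long transcript measure of the same sample (lower panel, bars from 0). Gclm, Gsr and Txnrd1 are lowest together in sample 1 of untreated WT and sample 2 of both KO groups, and Mt1 and Mt2 are lowest where the lower bar is lowest.

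The gene of Nrf2 itself was highest in untreated WT. Nfe2l2 (chromosome 2, 75675513 to 75704641 on the minus strand of GRCm38) was at 349, 337 and 297 CPM there and at 226, 214 and 220 CPM in DSS-treated WT. In KO it was at 228, 249 and 225 CPM untreated and at 237, 222 and 233 CPM under DSS. The untreated WT samples lay above all 9 others. Nfe2l2 fell under DSS in WT by 0.57 on the log2 scale (SE 0.093, adjusted p 0.00124) and was lower in untreated KO than in untreated WT (-0.48, SE 0.093, adjusted p 0.0085). It did not differ past the threshold with DSS in KO (-0.022, SE 0.093, adjusted p 0.946) or between genotypes under DSS (0.069, SE 0.093, adjusted p 0.809). The interaction of 0.55 passed narrowly (SE 0.13, adjusted p 0.049). It was lost with the replicate block (0.0779), with upper quartile scaling (0.0864), without the filter on low counts (0.145) and in 11 of 12 fits that left out a sample, all but the fit without untreated WT sample 3 (adjusted p up to 0.161). The untreated difference was lost without untreated KO sample 1 (0.0543) or sample 3 (0.061), and with only the 2 untreated groups in the fit (0.0826).

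Surface colonocyte markers changed where Nfe2l2 did, and also with DSS in KO and between the DSS-treated genotypes, where Nfe2l2 was not called. Under DSS 8 of 9 fell in WT and 7 of 9 in KO, and in untreated KO 2 of 9 were lower and 1 higher than in WT. Between the DSS-treated genotypes 4 of 9 were higher in KO, and for the interaction 2 of 9 passed, both positive. Their summed level (9 genes) was 11727 to 13076 CPM in untreated WT, 3164 to 3385 CPM in DSS-treated WT, 7313 to 7968 CPM in untreated KO and 3210 to 3804 CPM in DSS-treated KO. The part of this in the Nfe2l2 values was not tested. Keap1 was at 46.5 to 51.5 CPM and Bach1 at 22.7 to 28.3 CPM in the group means, and neither passed in any comparison (smallest adjusted p 0.5, Bach1 in untreated cells). Mtf1 was at 18.2 to 20.5 CPM and did not pass either, with pairwise log2 fold changes between 0.0010 and 0.17. Keap1 and Mtf1 share 7.78% and 7.55% of their 50-base words with other genes, each the most with a gene that overlaps it.

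**Figure D4:**
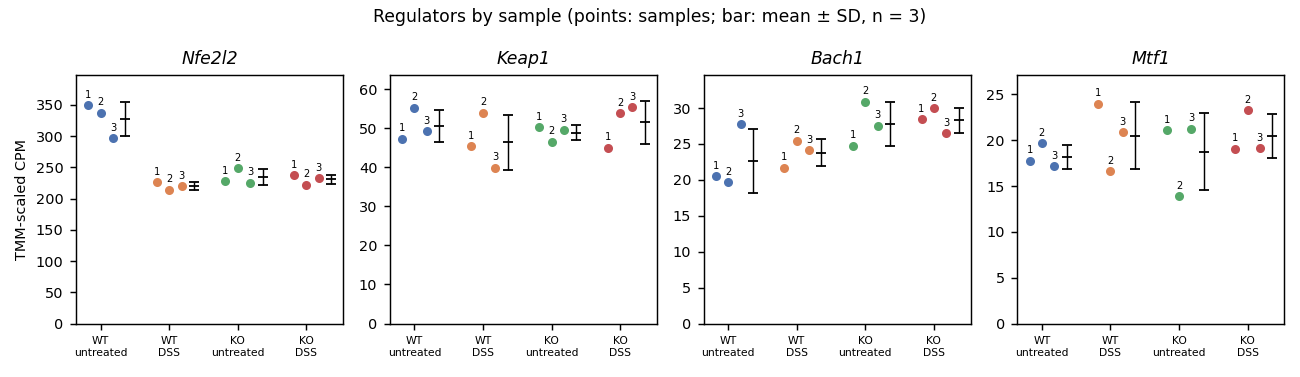
Level of the regulators Nfe2l2, Keap1, Bach1 and Mtf1 in each sample. The vertical axes give TMM-scaled CPM from 0, each point is 1 sample with its replicate number, and bars are mean and SD (n = 3). The 3 untreated WT samples of Nfe2l2, at 297 to 349 CPM, lie above the other 9.

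The wider list of Nrf2 and its partners held 15 genes, 14 of them tested. Under DSS 1 of them fell in WT, Nfe2l2, and 1 rose in KO. That was the small Maf gene Mafk, from 99.0 ± 13.7 to 150 ± 8.71 CPM (SD, n = 3; log2 change 0.60, SE 0.14, adjusted p 0.0263), which overlaps Tmem184a. The list medians were 0.064 in WT and 0.032 in KO. Between genotypes 1 of 14 was lower untreated (median -0.098) and 0 of 14 were called under DSS (median 0.045). Lists of this section were chosen with earlier results of these data known, and their counts stand against the shares of all genes given above.

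Among 29 tested Nrf2 targets outside the 10, 5 were called between the untreated genotypes and 2 with DSS in WT. Under DSS 2 of 29 fell in WT (median -0.067), and 0 of 29 were called in KO (median -0.14). The WT ones were Me1, malic enzyme, which makes NADPH (-1.48, SE 0.27, adjusted p 0.00334), and Abcc3, an organic anion exporter (-0.43, adjusted p 0.0347). In untreated KO 3 of 29 were higher and 2 lower than in WT (median 0.099). Gstm1, a glutathione S-transferase, was at 427 ± 39.4 CPM (SD, n = 3) against 190 ± 15.7 CPM, 2.24-fold higher (1.16, SE 0.11, adjusted p 3.09e-05). Gsta3, another transferase (1.00, adjusted p 0.0164), and Abcc4, an exporter (1.74, adjusted p 0.0266), were also higher. Me1 (-1.48, adjusted p 0.00645) and Osgin1 (-0.80, adjusted p 0.00636) were lower. Under DSS 2 of 29 were higher in KO, Gstm1 (0.62, adjusted p 0.00743) and Gstm3 (0.64, adjusted p 0.0485), and Osgin1 was lower (-0.59, adjusted p 0.0432), with a median of 0.019. With the replicate block neither Gstm3 (adjusted p 0.0636) nor Osgin1 (0.0701) passed. Gstm1, Gstm3 and Me1 share 18.9%, 28.8% and 28.3% of their 50-base words with other genes, each the most with a pseudogene, so their counts are uncertain.

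Of 30 tested glutathione and thioredoxin genes outside the 10, 0 were called in DSS-treated WT (median -0.0041), and 2 fell and 0 rose in KO (median -0.13). Prdx6, a peroxiredoxin that reduces phospholipid hydroperoxides, averaged 2925 ± 661 CPM in untreated WT, 3572 ± 44.8 CPM in DSS-treated WT, 4279 ± 213 CPM in untreated KO and 2733 ± 155 CPM in DSS-treated KO (SD, n = 3). It fell in KO (-0.65, SE 0.13, adjusted p 0.00963), its change in WT was 0.29 (adjusted p 0.245), and the interaction passed (-0.93, SE 0.18, adjusted p 0.0117). It was higher in untreated KO than in untreated WT (0.55, adjusted p 0.0264), the 1 gene of this list called there (median 0.038). Those of the goblet cell markers given above that were called moved opposite to Prdx6. With DSS 3 of 7 rose and 0 fell in KO, and 0 rose and 1 fell in WT. In untreated KO 2 of 7 were lower than in untreated WT, and 2 of 7 passed for the interaction, both positive. The medians of all 7 were 0.31, 0.090, 0.16 and 0.15 in the same order. For DSS in WT and for the untreated genotypes 4 of 7 were positive, the direction of Prdx6. The part of the goblet cell markers in the Prdx6 values was not tested. Chac2, which breaks glutathione down, fell in DSS-treated KO (-0.81, adjusted p 0.0348). Between genotypes under DSS 0 of 30 were called (median -0.066), and Prdx6 was at -0.39 (adjusted p 0.134).

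Few of the zinc and copper genes apart from Mt1 and Mt2 were called. Of 29 tested, 1 fell in DSS-treated WT (median 0.072), the zinc transporter Slc30a4 (-0.91, adjusted p 0.0249), and 0 were called in KO (median 0.051). In untreated KO 1 of 29 was lower than in WT (median 0.044), the manganese exporter Slc30a10, at 5.46 ± 1.36 against 33.3 ± 18.9 CPM (SD, n = 3; -2.60, SE 0.40, adjusted p 0.00211). It overlaps Gm2061. Under DSS 1 of 29 was higher in KO (median 0.12), the zinc importer Slc39a6, with 35 to 44 counts against 1 to 11 in WT (2.60, SE 0.59, adjusted p 0.0286).

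Among 23 tested heme and iron genes, 1 rose and 2 fell in DSS-treated WT (median 0.066). The iron exporter gene Slc40a1 rose (0.56, adjusted p 0.0223), the ferroxidase gene Heph fell (-0.48, adjusted p 0.0151), and Alas1, the first enzyme of heme synthesis, fell (-0.39, adjusted p 0.035). In KO 0 of 23 were called (median -0.037). Untreated KO had 2 of 23 lower than WT and 0 higher (median 0.069). The transferrin receptor gene Tfrc was at 231 ± 17.4 against 360 ± 34.9 CPM (SD, n = 3; -0.64, adjusted p 0.0114), and Alas1 differed by -0.54 (adjusted p 0.00849). Tfrc was also lower in DSS-treated KO than in DSS-treated WT, 1 of 23 (-0.57, adjusted p 0.0257, median -0.066). For the interaction the calls in these 5 lists were Nfe2l2 and Prdx6. The sentences above hold 27 calls of list genes. The sign held in every alternative and every fit that left out a sample for all 27, and 7 also stayed past the threshold in all of them: Nfe2l2 and Me1 under DSS in WT, Gstm1, Osgin1 and Slc30a10 in untreated cells, and Prdx6 for DSS in KO and the interaction. Of the other 20, those lost in most of the 12 fits without a sample were the Nfe2l2 interaction (11), Gstm3 (10), Chac2 and the Osgin1 difference under DSS (9 each), and Abcc3 and Alas1 for DSS in WT (7 each).

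Immediate early and heat-shock genes, known to rise when tissue is dissociated, moved with DSS beside all of these lists. Of 13 tested, 8 rose and 0 fell in WT, and 7 rose and 1 fell in KO. They summed to 6043 to 6731 CPM in untreated WT and 8514 to 8618 CPM in DSS-treated WT. Under DSS 3 of 13 were lower in KO than in WT. In KO they summed to 6318 to 6403 CPM untreated and 7470 to 7748 CPM under DSS. Their part in the values above was not tested.

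**Figure D5:**
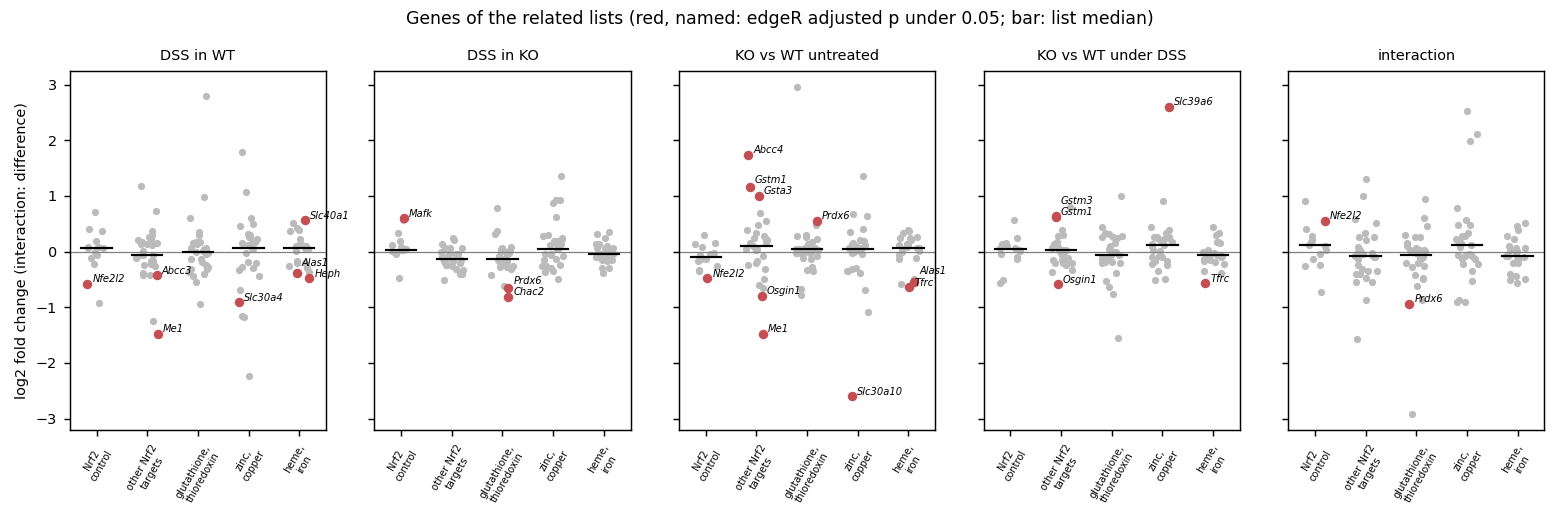
Log2 fold change of each tested gene of the 5 related lists in the 4 pairwise comparisons and, in the last panel, the interaction. Each point is 1 gene, red named points have an edgeR adjusted p under 0.05, and the bar is the list median. Most genes lie close to 0, and the named genes of a list lie on both sides of 0 in several panels, as for the other Nrf2 targets in untreated cells (Gstm1 at 1.16 and Me1 at -1.48).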

How the data were processed

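RNA was measured in 12 samples of colonic epithelial cells, in 4 groups of 3 given by the titles. Per the labels' protocols, about 90% of the isolated cells were typically epithelial by flow cytometry, RNA integrity numbers were 7.2 to 9.2, and libraries were made from 2 ng of total RNA with SMART-seq2 and Nextera XT. This method keeps neither strand nor molecular identifiers. The deposited values are whole-number read counts per gene, which the authors did not normalise as far as the values show. STAR 2.5.2b, featureCounts 1.5.0 and the builds GRCm38 and mm10 are named in the submitters' processing notes, and the annotation and strand setting are not given in the sources used here. The series' design text calls the samples biological replicates. No source says that each is 1 mouse, so p-values measure the spread between these samples.

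Symbols came from GENCODE M21 (GRCm38) by Ensembl ID without version (46005 of 46517 IDs matched). Genes passing filterByExpr, with 99.8% of all counts, were tested with edgeR 4.0.16 in R 4.3.3: TMM scaling, 1 coefficient per group over all 12 samples, quasi-likelihood F test, Benjamini-Hochberg over 12522 genes, threshold 0.05. SE is the absolute log2 fold change over the square root of F, and log2 CPM used a prior count of 2. A floor of 3 counts is 0.356 to 0.53 CPM and covers counting error only. Replicates differed beyond sampling noise (chi-square per degree of freedom 6.51 to 27.0), so each was counted. Genes of like level lie within 0.5 log2 CPM. Promoters were read from RefSeq GRCm38.p6, and 50-base words were compared between transcripts of all genes. A share of words counts those found in any other gene, and a gene named beside it holds the most of them.

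The members and gene lists were chosen with earlier results of these data known. All members are named, with Nfkb2, Nfe2l2, Keap1, Bach1 and Mtf1. From each list up to 4 genes past the threshold in each direction are named, and for a called member the 3 genes of most similar pattern. Alternatives were RLE and upper quartile scaling, 2 filters, DESeq2 1.42.0, a replicate block, only the groups compared, and leaving out each sample. Replicate numbers in the titles were checked for pairing by correlating deviations from group means: same-numbered samples gave 0.20, 0.11 and 0.13 between the KO groups, all over 0.1, and 0.014, 0.12 and 0.13 between the WT groups. Over all 18 pairs of samples r was -0.18 to 0.20. Pairing within a genotype was not modelled: the replicate block shares its effects between genotypes, and no block within each genotype was fitted. The p values for DSS therefore take no account of such pairing.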

Additional observations from a re-analysis of the deposited data

Results flagged for a closer look

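The DSS change of Nfe2l2, the Nrf2 gene, differed between genotypes by the interaction term of edgeR: the change in KO minus that in WT was 0.55 (SE 0.13, adjusted p 0.049). It did not pass in 11 of 12 fits that left out a sample (adjusted p up to 0.161), nor with the replicate block (0.0779), upper quartile scaling (0.0864) or no filter on low counts (0.145). The DSS change of Prdx6, a peroxiredoxin, differed between genotypes by -0.93 (SE 0.18, adjusted p 0.0117), and all 12 fits that left out a sample kept it past the threshold.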

How the results depend on the processing

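Counts of genes past the threshold moved by more than 1.5 times in several alternatives. With no filter on low counts they were 776 for DSS in KO (491 as reported), 703 for KO against WT untreated (436), 642 under DSS (390) and 356 for the interaction (213), and with DESeq2 779, 736, 637 and 354. With only the groups compared, 467 genes passed for DSS in WT (789 as reported) and 195 for KO against WT untreated. Leaving out each sample gave 483 to 958 genes for DSS in WT, 235 to 710 for DSS in KO, 212 to 725 and 160 to 566 for the genotypes untreated and under DSS, and 152 to 350 for the interaction. Averaging, added after the values were seen, gave 1117 genes for DSS and 745 for KO against WT, each with 1 member (Srxn1 and Gpx2).

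Of the 10 members, DESeq2 called 1 for DSS in WT (Srxn1), 1 for DSS in KO (Gpx2) and 1 for KO against WT under DSS (Gpx2). No filter called 1 for DSS in KO (Gpx2, adjusted p 3.2e-05) and 1 for KO against WT untreated (Gclm). It also kept the 1 for KO against WT under DSS. Upper quartile scaling called 0 for KO against WT under DSS. Fits without 1 sample called 0 to 1 members for DSS in WT, for DSS in KO (Gpx2 without untreated KO sample 1, KO sample 3 under DSS or untreated WT sample 3) and for KO against WT under DSS. The cause was not tested. With the replicate block 695, 409, 345, 290 and 186 genes passed, in the order DSS in WT, DSS in KO, KO against WT untreated, under DSS, and the interaction, with 0, 0, 0, 1 and 0 members, and it ended 3 calls named in the report: the Nfe2l2 interaction, and Gstm3 (adjusted p 0.0636) and Osgin1 (0.0701) for KO against WT under DSS. Within each genotype every sample correlated best with its own number, and between genotypes none did (6 of 18 pairs in all). Same-numbered untreated and DSS samples of a genotype also carry adjacent library numbers. The replicate block gives a number the same effect in both genotypes, although same-numbered samples of different genotypes had negative r. It therefore cannot represent pairing within a genotype, which was not modelled.

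Of the 50 member results, 21 changed sign in at least 1 fit that left out a sample and none in another alternative, and the smallest adjusted p in a fit with a changed sign was 0.682. The ranges for DSS in WT were -0.016 to 0.72 for Gclc, -0.092 to 1.28 for Gclm, -0.094 to 0.25 for Txnrd1, -0.032 to 0.52 for Gsr and -0.13 to 0.84 for Mt2. The ranges for DSS in KO were -0.11 to 0.021 for Nqo1, -0.18 to 0.51 for Gclm, -0.39 to 0.059 for Txnrd1, -0.42 to 0.17 for Gsr and -0.068 to 0.95 for Mt2. The ranges for KO against WT untreated were -0.23 to 0.20 for Gclc, -0.21 to 0.24 for Txnrd1, -0.23 to 0.44 for Gsr and -0.45 to 0.79 for Mt2. The range for KO against WT under DSS was -0.13 to 0.60 for Gclc. The ranges for the interaction were -0.13 to 0.63 for Hmox1, -0.20 to 0.54 for Gclc, -1.06 to 0.31 for Gclm, -0.44 to 0.0060 for Txnrd1, -0.094 to 0.24 for Srxn1 and -0.44 to 0.80 for Mt2.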
